A study of Mus musculus with 2 samples.

Results

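A set of 8 genes that astrocytes use to clear glutamate, to move water and to couple with each other was followed across the nuclei of the mouse brainstem. The genes were taken as a named list (Slc1a2, Slc1a3, Glul, Aqp4, Gja1, Gjb6, Gfap and Aldh1l1), and all 8 were among the 25556 genes counted. Single-nucleus RNA-seq had been run on the brainstem of 1 WT and 1 HET mouse, both female, C57Bl6 and at postnatal day 41. The HET mouse carried the Scn1a knock-in allele Scn1aA1783V/WT, a loss-of-function missense change in a voltage-gated sodium channel subunit that models Dravet Syndrome, made by crossing a floxed male with a Sox2-Cre female. The WT mouse had intact Scn1a, and neither mouse was treated. With 1 library per genotype no difference between genotypes could be tested. Every interval below is a 95% counting interval, which covers the sampling of molecules and not the spread between nuclei, mice, dissections or libraries.

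Astrocytes take up the glutamate that neurons release through 2 transporters, GLT-1 (Slc1a2) and GLAST (Slc1a3), and glutamine synthetase (Glul) turns it into glutamine that is handed back to neurons. Aquaporin-4 (Aqp4) is the water channel of the astrocyte endfeet around blood vessels. Connexin 43 (Gja1) and connexin 30 (Gjb6) form the gap junctions that join astrocytes into a network. Gfap encodes the intermediate filament protein that is abundant in fibrous and reactive astrocytes, and Aldh1l1 a folate enzyme widely used as a marker of astrocytes.

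The WT library held 70301390 unique molecules (UMIs) in 9259 nuclei and the HET library 66176778 UMIs in 9022 nuclei, split by the authors into 16 clusters. Their astro cluster held 609 WT nuclei (6.58% of the library, Clopper-Pearson interval 6.08 to 7.10%) and 709 HET nuclei (7.86%, 7.31 to 8.43%), with medians of 2963 and 3318 UMIs per nucleus. All 10 astrocyte markers other than the 8 genes were detected there in both libraries, and their summed level was 13861 CPM (UMIs per 1000000 UMIs of the same nuclei) in WT and 16740 CPM in HET, against 848 and 905 CPM over the neuronal clusters. A second, reference-based label called 1288 of the 1318 astro nuclei Astrocytes, 20 Neurons and 10 Oligodendrocytes. The libraries also differed in ways that the genotype label does not describe. The ribosomal protein share of an astro nucleus had a median of 0.926% in WT and 0.498% in HET, the doublet score a median of 0.219 and 0.117, and the choroid plexus transcript Ttr, which astrocytes should lack, lay at 635 and 71.5 CPM in astro nuclei. Cluster neuron.5 held 42 WT and 332 HET nuclei, neuron.6 held 120 and 5, and epend.2 held 108 and 6. What was dissected and the genotype cannot be told apart. Scn1a was at 380.2 CPM in WT and 420.4 CPM in HET over all nuclei, and a missense allele is still transcribed, so this level does not check the label.

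Among clusters with 30 or more nuclei in both libraries, Slc1a2 was concentrated in the astro cluster. The other 7 genes were shared with other cells to very different degrees. Cluster neuron.6, left out here because HET had 5 of its nuclei, held Slc1a2 at 28.0% of the astro level in WT. In the astro cluster Slc1a2 (chr2:102658659-102790784, plus strand, GRCm38) reached 2143 CPM in WT (4530 UMIs, Poisson interval 2081 to 2206) and 3147 CPM in HET (8191 UMIs, 3080 to 3216). Among the 12 clusters that had 30 or more nuclei in both libraries, no other exceeded 177.5 CPM in WT or 223 CPM in HET, both in endo, and the intervals of astro and endo lay far apart. In oligo nuclei Slc1a2 was at 62.6 and 82.3 CPM, which is 2.92% and 2.61% of its astro level.

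Slc1a3 (chr15:8634124-8710764, minus strand) was spread more widely. It was at 393 CPM in WT astro nuclei (831 UMIs) and 458 CPM in HET (1193 UMIs), and the fibro cluster matched it with 438 CPM (201 UMIs) and 461 CPM (193 UMIs), with overlapping intervals in both libraries. Oligo nuclei held 113 and 127 CPM, 28.8% and 27.7% of the astro level. The transporters therefore differed in how far they extended beyond the astro cluster, since oligo nuclei kept below 3% of the Slc1a2 level.

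Glul (chr1:153899944-153909723, plus strand) was not highest in the astro cluster in either library. In WT the order was endo at 336 CPM, oligo at 317 CPM, fibro at 231 CPM and astro at 203 CPM, where endo and oligo overlapped, as did fibro and astro. In HET it was oligo at 314 CPM, fibro at 265 CPM, astro at 261 CPM and endo at 229 CPM, each overlapping the next. Oligo nuclei thus carried 156% of the astro level in WT and 120% in HET. Within oligo, Glul ranged over the authors' subclusters from 213 CPM in WT and 228 CPM in HET (subcluster 2) through 308 and 329.9 CPM (subcluster 7) and 336 and 405 CPM (subcluster 6) to 454 and 592 CPM (subcluster 8). The order of these 4 subclusters was the same in both libraries, although in WT the interval of subcluster 6 overlapped those of the other 3. Subcluster 6 held 39 WT and 827 HET nuclei and subcluster 8 held 825 and 35. Endo nuclei that the reference label also called Endothelial cells held 365 CPM in WT (161 nuclei) and 355 CPM in HET (48 nuclei).

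Aqp4 (chr18:15389496-15410982, minus strand) had the astro cluster first, at 459.7 CPM in WT (972 UMIs, interval 431 to 489.6) and 505 CPM in HET (1315 UMIs, 478 to 533). The ependymal cluster epend.1 came next in both libraries with 186 CPM (79 UMIs) and 233 CPM (53 UMIs), and its interval overlapped neither astro above it nor fibro below it. Gja1 (chr10:56377330-56402513, plus strand) was at 244 CPM in WT astro nuclei (515 UMIs) and 260.1 CPM in HET (677 UMIs). It was followed by fibro at 119.7 and 143 CPM and by epend.1 at 89.4 and 88.1 CPM, which overlapped each other.

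Gjb6 (chr14:57123303-57133611, minus strand) was found almost only in the astro and fibro clusters. It was at 107 CPM in WT astro nuclei (227 UMIs) and 148 CPM in HET (385 UMIs), whereas fibro held 211 CPM in WT (97 UMIs) and 148 CPM in HET (62 UMIs). Fibro was therefore above astro in WT, beyond both intervals, and level with it in HET, and every other compared cluster lay at or below 12.2 CPM. The fibro cluster was mixed by the reference label, with 95 of its nuclei called Astrocytes, 111 Neurons, 40 Fibroblasts, 17 Oligodendrocytes and 3 Microglia. Over both libraries Gjb6 was at 249.8 CPM in the 95 nuclei called Astrocytes (71 UMIs, interval 195 to 315), at 147 CPM in the 111 called Neurons (58 UMIs, 112 to 189.8) and at 127 CPM in the 40 called Fibroblasts (15 UMIs, 70.9 to 209). Slc1a3 in the same 3 sets was at 689.5 CPM, 324 CPM and 253 CPM, while Slc1a2 in fibro as a whole was at 63.1 and 102.7 CPM, 2.95% and 3.26% of its astro level.

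Gfap (chr11:102887336-102900912, minus strand) was highest in the astro cluster, at 239 CPM in WT (505 UMIs) and 164 CPM in HET (427 UMIs), and at most 28.2 CPM in any other compared cluster. Aldh1l1 (chr6:90486427-90600203, plus strand) was at 77.6 CPM in WT astro nuclei (164 UMIs) and 84.2 CPM in HET (219 UMIs), with no other compared cluster above 17.6 CPM. Endo held 0 Aldh1l1 UMIs in HET, which allows up to 9.17 CPM, and epend.1 held 0 Gjb6 UMIs in HET, which allows up to 13.2 CPM.

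**Figure D1:**
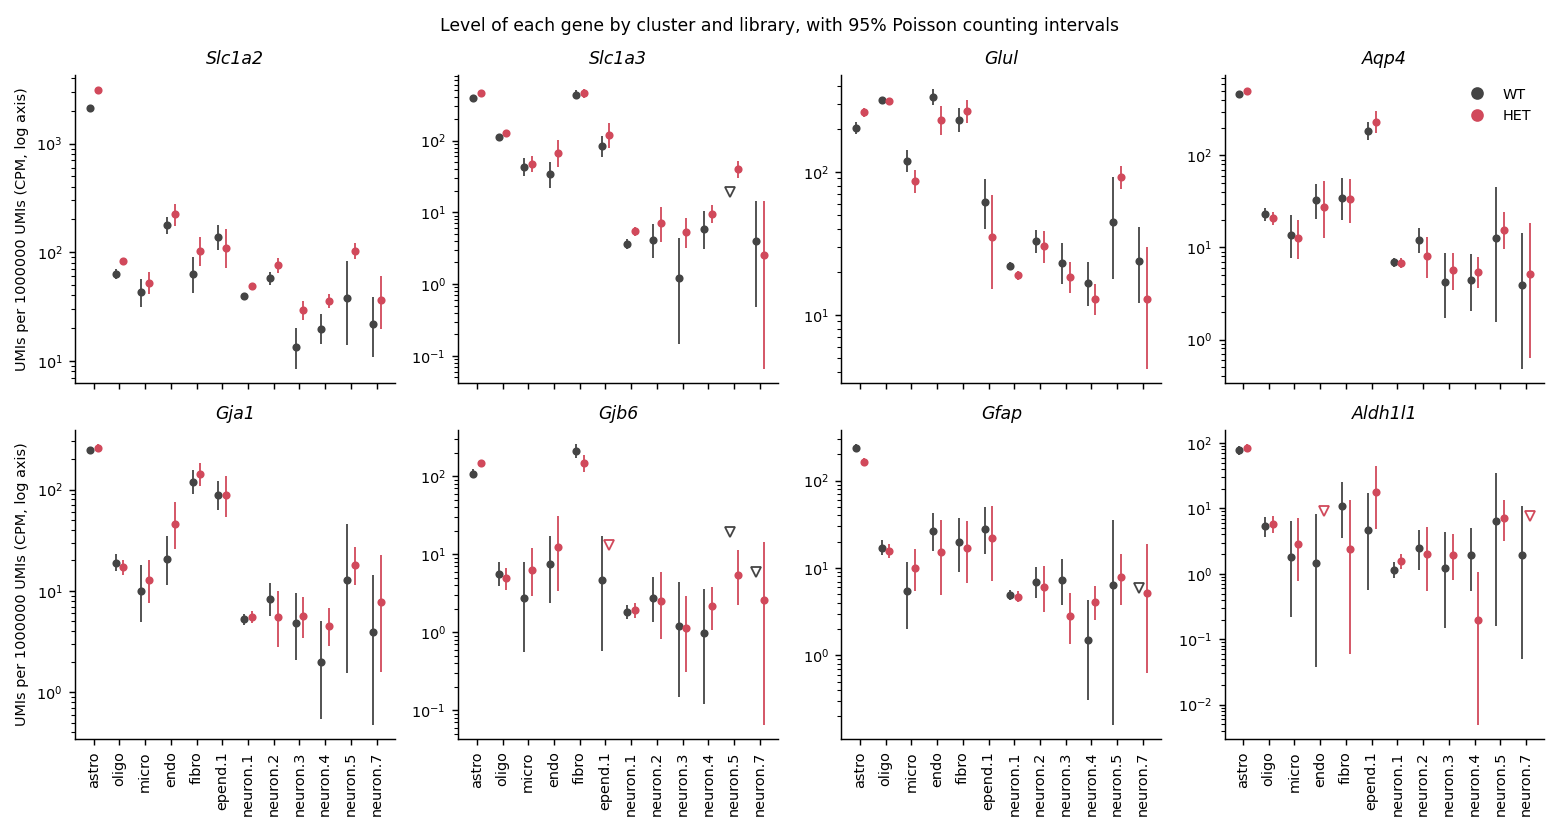
Level of each gene in CPM (vertical log axis) in the 12 clusters that had 30 or more nuclei in both libraries (horizontal axis), WT in grey and HET in red, with 95% Poisson counting intervals; open triangles mark the level that 3 UMIs would give where none was counted. Slc1a2, Aqp4, Gja1, Gfap and Aldh1l1 are highest in astro, Slc1a3 and Gjb6 are as high or higher in fibro, and Glul is higher in oligo in both libraries and in endo in WT.

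Neurons are known to transcribe little of most of these genes, and their nuclei are given for comparison. The level of free RNA was not measured. Over the neuronal clusters, neuron.6 included, 7 of the 8 genes lay between 0.927% and 2.81% of their astro level in both libraries, and Glul was above them with 11.5% in WT and 7.90% in HET. Drawn down to 1000 UMIs per nucleus, 5.58% of WT and 5.69% of HET neuronal nuclei held a Slc1a2 UMI, against 82.9% and 89.5% of astro nuclei. Without neuron.6 the neuronal shares were 4.85% and 5.65%. Median depths were 7729 and 8390 UMIs in neuronal nuclei and 2963 and 3318 UMIs in astro nuclei. The corresponding thinned shares for Gfap were 0.694% and 0.620% in neurons and 10.7% and 8.37% in astro nuclei, and for Aldh1l1 0.154% and 0.174% in neurons and 8.18% and 7.80% in astro nuclei. At full depth, nuclei with a UMI of at least 4 of the 8 genes made up 58.5% of WT and 70.1% of HET astro nuclei but 0.392% and 0.538% of neuronal nuclei.

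Cluster neuron.6 stood apart from the other large neuronal clusters by its Slc1a2 level, with each of the other 7 genes at or below 8.84% of its astro level. Its 120 WT nuclei held 1004 Slc1a2 UMIs, or 600.2 CPM (interval 564 to 639), which is 28.0% of the WT astro level, and 98.3% of these nuclei had a UMI at a median depth of 12413 UMIs. Thinned to 1000 UMIs, 41.8% of them did, compared with 5.58% over all WT neuronal nuclei. The same nuclei held 2 UMIs each of Slc1a3, Gjb6 and Aldh1l1, 3 of Gfap, 5 each of Aqp4 and Gja1, and 30 of Glul. The 5 HET nuclei of this cluster held 23 Slc1a2 UMIs, 663 CPM (interval 420.5 to 995), and none of the other 7. All 125 nuclei were called Neurons by the reference label, and their 10 astrocyte markers summed to 116 CPM in WT. The part of free RNA in these values was not tested. Cluster neuron.9, left out of the comparisons between libraries because HET had 2 of its nuclei, was high for most of the list. Its 35 WT nuclei held 50 Glul UMIs, 589.7 CPM or 291% of the WT astro level, and Gfap (13 UMIs) was at 64.2%, Gjb6 (5 UMIs) at 54.9%, Aqp4 (12 UMIs) at 30.8% and Slc1a2 (35 UMIs) at 19.3% of theirs, with 1 to 4 UMIs of each of the other 3 genes. The median mitochondrial share of these nuclei was 6.64% at a median depth of 2034 UMIs, and the reference label called 21 of them Neurons and 13 Oligodendrocytes. The part of these values in its levels was not tested.

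**Figure D2:**
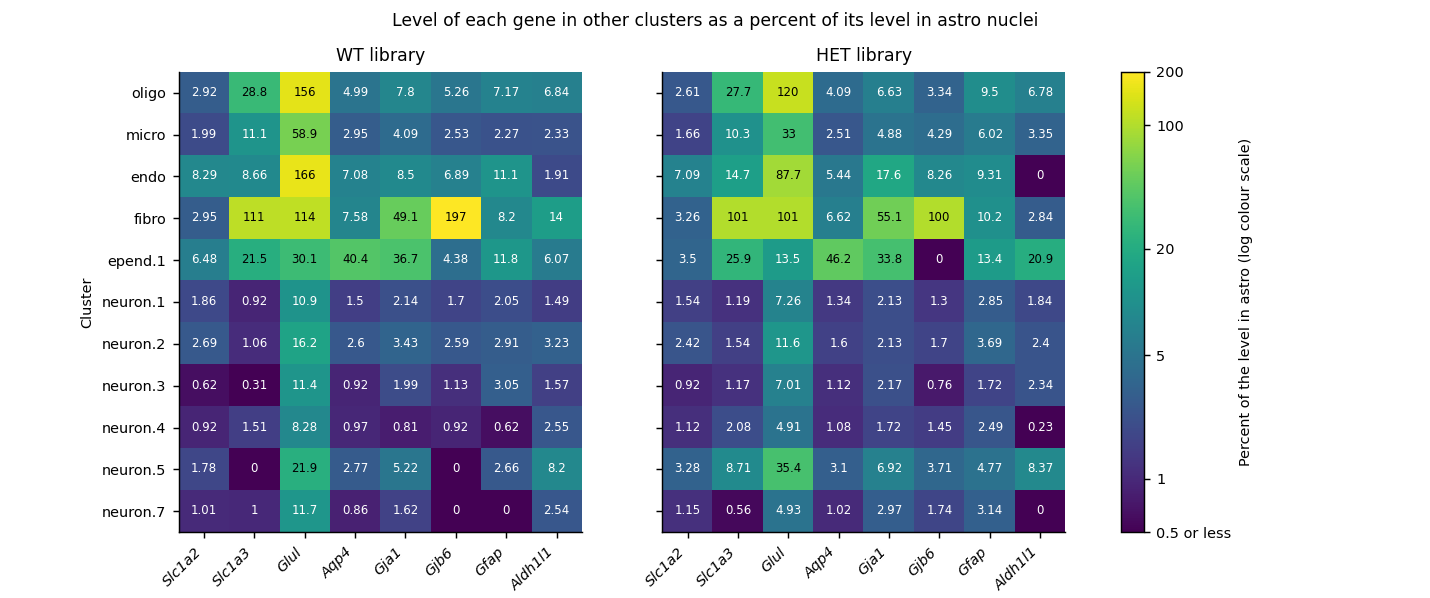
Level of each gene (columns) in 11 other clusters (rows) as a percent of its level in astro nuclei of the same library, with WT on the left and HET on the right and colour on a log scale. Apart from Glul, the 6 neuronal clusters drawn stay at or below 8.71%, whereas Slc1a3, Glul and Gjb6 reach or pass 100% in fibro and Glul 156% in WT oligo nuclei.

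Within the astro cluster, 7 of the 8 genes were higher in HET than in WT and Gfap was lower, and the differences of 6 exceeded the counting interval. The share of all genes whose interval excluded 0 was not computed, so these counts are not read as a trait of the set. Among the 51 genes of related lists taken up below, the intervals of 11 lay above 0 and those of 12 below. Slc1a2 went from 2143 to 3147 CPM, and its log2 ratio of HET over WT was 0.55 (0.50 to 0.61), or 1.47-fold. Gjb6 followed with 0.46 (0.22 to 0.71), Glul with 0.36 (0.19 to 0.54), Slc1a3 with 0.22 (0.09 to 0.35) and Aqp4 with 0.14 (0.02 to 0.26). The intervals of Aldh1l1 (0.12, −0.18 to 0.42) and Gja1 (0.09, −0.07 to 0.26) included 0. Gfap, with 239 CPM against 164 CPM, had a log2 ratio of −0.54 (−0.73 to −0.35).

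None of the 8 passed 1.5-fold in either direction in the astro cluster, although Slc1a2 did so when the median of all genes was set to 0, and Gfap did so in nuclei with at least 2000 UMIs or without the 5% of nuclei with the highest doublet scores. Of the 4222 genes with at least 200 UMIs there, 4.52% were at least 1.5-fold higher in HET and 10.6% at least 1.5-fold lower, with a median log2 ratio of −0.04, and the median of the 8 genes was 0.18. Slc1a2 stood at percentile 95.03 of these 4222 genes, Gjb6 at 92.2, Glul at 87.8 and Gfap at 12.3. Gene length moved with the ratio, and its part in these differences was not tested. When the genes were split by length into 4 equal sets, the shortest set, which holds Glul, Aqp4, Gja1, Gjb6 and Gfap, had a median log2 ratio of −0.40, and the third set, which holds Slc1a2, Slc1a3 and Aldh1l1, had 0.02. The antisense transcript Gm13872, which overlaps Slc1a2 on the other strand, also went from 112 to 266 UMIs in astro nuclei, and the sources do not say whether the counting used strand.

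The Slc1a2 difference was also seen in the counts per nucleus of the largest subcluster. In the largest astro subcluster, subcluster 4 at resolution 0.8, nuclei with 5 or more Slc1a2 UMIs made up 68.8% in WT and 88.9% in HET, and those with none 1.47% and 0.341%. Thinned to 1000 UMIs, 88.0% of WT and 94.0% of HET nuclei of that subcluster held a Slc1a2 UMI. The shares before thinning were at full depth, with medians of 2841 UMIs in WT and 3258 UMIs in HET. In subcluster 19, 23.7% of WT and 25.8% of HET nuclei held 5 or more. How many nuclei carried the difference was not tested.

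The astro cluster had 3 subclusters. For Gfap, Aqp4 and Slc1a2, subclusters 19 and 4 differed more than the libraries did. Slc1a3 did not follow, as in WT it was 1.35-fold higher in subcluster 19 than in subcluster 4. Within subcluster 19 it was 1.89-fold higher in HET than in WT. Subcluster 4 held 475 WT (78.0%) and 587 HET (82.8%) astro nuclei, subcluster 19 held 76 (12.5%) and 66 (9.31%), and subcluster 26 held 58 (9.52%) and 56 (7.90%). The subclusters were made from the same counts, so what follows is a description of them and not a test. Gfap lay at 64.2 CPM in WT and 46.7 CPM in HET inside subcluster 4, and at 646 and 585 CPM outside it, 10.1-fold and 12.5-fold higher. The excess was in subcluster 19, where Gfap reached 1513 CPM in WT (385 UMIs) and 1384 CPM in HET (325 UMIs), 23.6-fold and 29.7-fold above subcluster 4, while subcluster 26 held 65.7 and 21.0 CPM (25 and 7 UMIs). The 76 and 66 nuclei of subcluster 19 thus gave 385 of the 505 and 325 of the 427 Gfap UMIs of the astro cluster. Of them, 73.7% and 66.7% had a Gfap UMI, while 88.0% and 89.3% of subcluster 4 nuclei had none, at median depths of 2682 and 3072 against 2841 and 3258 UMIs.

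Subcluster 19 showed the other genes of the list in a distinct balance. Aqp4 was 3.14-fold higher than in subcluster 4 in WT (1234 against 393 CPM) and 3.54-fold in HET (1546 against 437 CPM). Slc1a2 was 2.32-fold lower in WT (1092 against 2531 CPM) and 3.30-fold lower in HET (1082 against 3573 CPM), and Glul was 2.19-fold and 3.62-fold lower (90.4 against 198 CPM and 76.7 against 277 CPM). Gja1 was at 330.1 and 383 CPM against 262 and 269 CPM, and beyond counting only in HET. Aldh1l1 was lower in both libraries, at 43.2 and 46.9 CPM against 89.9 and 88.0 CPM, from 11 UMIs each in subcluster 19.

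Genes of the related lists and markers also separated subcluster 19 from subcluster 4. Gpc5, a glypican highly transcribed in most astrocytes, was at 185 and 132 CPM in subcluster 19 and at 8820 and 10017 CPM in subcluster 4. Slc7a10, a serine transporter of astrocytes, was at 43.2 and 59.6 CPM against 597 and 534 CPM, and Slc6a11, the GABA transporter GAT-3, at 236 and 183 CPM against 719 and 916 CPM. In the opposite direction, the hyaluronan receptor Cd44 was at 165 and 115 CPM against 7.44 and 11.8 CPM, the filament gene Vim at 106 and 93.7 CPM against 12.2 and 7.37 CPM, the complement gene C4b at 318 and 196 CPM against 14.9 and 9.34 CPM, and the glutamine transporter Slc38a1 at 782 and 946 CPM against 75.03 and 52.1 CPM. The defining markers of endothelial cells stayed at or below 34.1 CPM in subcluster 19, and those of microglia and of ependymal cells at or below 110.7 CPM. The ependymal markers summed to 66.8 and 124 CPM (17 and 29 UMIs), above the 31.1 and 22.6 CPM of subcluster 4. The oligodendrocyte markers summed to 2083 and 2334 CPM against 1562 and 1673 CPM in subcluster 4. The part of other cell types in subcluster 19 was not tested.

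Subcluster 26 had lower levels of most of the list together with markers of oligodendrocytes. Slc1a2 was at 1336 and 2004 CPM, 1.90-fold and 1.78-fold below subcluster 4, and Aqp4 (199.8 and 189 CPM), Gja1 (116 and 117 CPM) and Gjb6 (57.8 and 87.1 CPM) were lower too, beyond counting in both libraries. Glul did not follow, at 297 and 294 CPM against 198 and 277 CPM, and was higher beyond counting in WT. All 5 oligodendrocyte markers were detected, and they summed to 5694 and 6180 CPM, above the 1562 and 1673 CPM of subcluster 4 and below the 10971 and 12891 CPM of oligo nuclei. Its median depth was 5099 and 5127 UMIs and its median doublet score 0.267 and 0.217, against 0.218 and 0.116 in subcluster 4. The part of doublets in subcluster 26 was not tested.

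**Figure D3:**
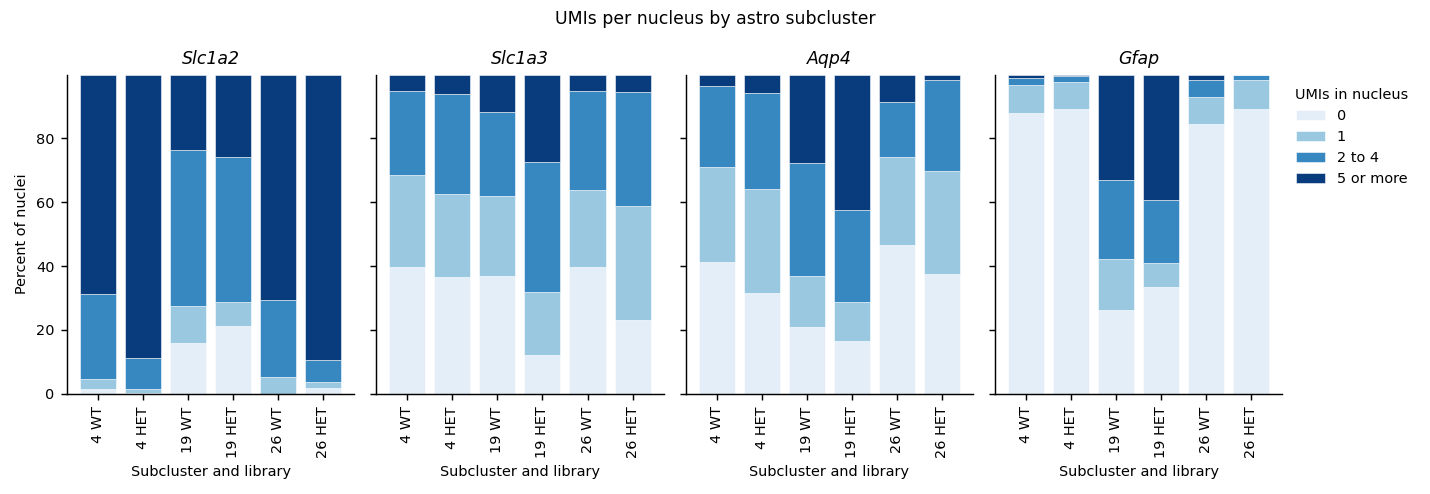
Percent of nuclei (vertical axis, stacked to 100%) with 0, 1, 2 to 4, or 5 or more UMIs of Slc1a2, Slc1a3, Aqp4 and Gfap in astro subclusters 4, 19 and 26 of each library (horizontal axis). In subcluster 19, 32.9% of WT and 39.4% of HET nuclei hold 5 or more Gfap UMIs, against 1.05% and 0.511% in subcluster 4.

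The RefSeq promoter windows of Gfap and Slc1a3 each match a short pattern with free bases. Those of the other 5 genes with a window do not match it. Aqp4 had no window and was not searched. Whether the match goes with the levels of these genes was not tested. The promoters below run from 250 bases before to 50 bases after the RefSeq start (GRCm38.p6), and the capitals mark TTCNNNGAA, the palindromic core bound by STAT factors, searched on both strands, which the palindrome makes equivalent. The RefSeq start used for the window lies inside the GENCODE gene whose coordinates are given above by 47.8 kb for Slc1a2, 64.4 kb for Aldh1l1 and 3.71 kb for Gfap, and within 43 bases of its start for the other 4, so the upstream starts of those 3 genes were not searched. Of all 32851 promoters of this length, 8.30% held it. The matched bases were TTCCAGGAA in Gfap and TTCCAAGAA in Slc1a3. The stricter TTCCNGGAA, held by 1.15% of the promoters, was matched by Gfap and not by Slc1a3. The match is a description and says nothing of binding in these nuclei. Gfap lies at chr11:102897151-102897450 and Slc1a3 at chr15:8710758-8711057, both on the minus strand and written 5′ to 3′ on the gene's strand.
Gfap: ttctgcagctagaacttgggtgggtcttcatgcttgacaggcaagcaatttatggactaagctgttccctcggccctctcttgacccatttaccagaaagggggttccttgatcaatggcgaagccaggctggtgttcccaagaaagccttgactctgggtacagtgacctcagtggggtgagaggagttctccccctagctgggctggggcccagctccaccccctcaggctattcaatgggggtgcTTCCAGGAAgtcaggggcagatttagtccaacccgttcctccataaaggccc
Slc1a3: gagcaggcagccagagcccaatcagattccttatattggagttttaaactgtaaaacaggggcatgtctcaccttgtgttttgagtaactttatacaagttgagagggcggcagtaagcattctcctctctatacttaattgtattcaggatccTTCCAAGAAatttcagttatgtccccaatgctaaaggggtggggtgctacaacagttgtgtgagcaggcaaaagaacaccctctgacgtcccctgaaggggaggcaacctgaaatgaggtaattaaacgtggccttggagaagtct

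The ratio between the libraries differed among the subclusters. In subcluster 4, Slc1a2 had a log2 ratio of HET over WT of 0.50 (0.44 to 0.55), Gjb6 0.49 (0.22 to 0.76), Glul 0.48 (0.28 to 0.69) and Gfap −0.46 (−0.89 to −0.03), the last from 95 UMIs in each library. Slc1a3 (0.04), Aqp4 (0.15), Gja1 (0.04) and Aldh1l1 (−0.03) had intervals that included 0. None of the 8 passed 1.5-fold there, while 5.79% of 3091 genes were at least 1.5-fold higher and 9.8% at least 1.5-fold lower in HET.

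Outside subcluster 4 only Slc1a3 passed 1.5-fold, at 351 CPM in WT (223 UMIs) and 588 CPM in HET (334 UMIs), which is a ratio of 0.74 on the log2 scale (0.50 to 1.00). Of the 904 genes with at least 200 UMIs there, 5.53% were at least 1.5-fold higher and 3.65% at least 1.5-fold lower in HET. The difference was in subcluster 19, where Slc1a3 went from 554 CPM (141 UMIs) to 1048 CPM (246 UMIs), a log2 ratio of 0.92 (0.61 to 1.23), while subcluster 26 gave 0.29 (−0.16 to 0.75). Nuclei of subcluster 19 with no Slc1a3 UMI made up 36.8% in WT and 12.1% in HET, and after thinning 35.1% and 58.5% held one. Slc1a3 is also a gene of Bergmann glia, the astrocytes of the cerebellar cortex. The 5 genes listed for them, Gdf10, Hopx, Slc1a6, Fabp7 and Gpr37l1, were all detected in subcluster 19. They summed to 589.5 CPM in WT and 383 CPM in HET, against 337 and 268 CPM in subcluster 4. The defining marker Gdf10 was at 7.86 and 17.0 CPM on 2 and 4 UMIs, so these sums rest mostly on the other listed genes. The part of Bergmann glia in the Slc1a3 difference was not tested. In subcluster 19 as a whole, 8.68% of the 242 genes with at least 200 UMIs were at least 1.5-fold higher in HET and 5.79% at least 1.5-fold lower.

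Slc1a2 did not share this pattern. In subcluster 19 it was at 1092 CPM in WT and at 1082 CPM in HET, so that its ratio on the log2 scale was −0.01 (−0.27 to 0.24), which is 0.51 lower than in subcluster 4 (interval of the difference −0.76 to −0.26). Slc1a3 showed the opposite difference, 0.88 higher in subcluster 19 than in subcluster 4 (0.55 to 1.21). Gjb6 was at 114 CPM in WT (29 UMIs) and 72.4 CPM in HET (17 UMIs) in subcluster 19, and its ratio was 1.14 lower than in subcluster 4 (−2.04 to −0.24). For Glul the interval of the difference between subclusters 19 and 4 included 0 (−0.72, −1.64 to 0.19). Taken inside against outside subcluster 4, the Glul ratio was 0.55 higher (0.14 to 0.96) and the Slc1a3 ratio lower (−0.71, −0.99 to −0.42). In that contrast the intervals of Slc1a2 (0.11, −0.04 to 0.26) and Gjb6 (0.47, −0.16 to 1.11) included 0. These intervals of differences cover counting error only, and with 1 mouse per genotype the differences were not tested.

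Gfap had a ratio of −0.13 (−0.35 to 0.09) in subcluster 19 and a lower one in subcluster 26 (25 against 7 UMIs, −1.64, −3.10 to −0.39). In subcluster 26, 84.5% of WT and 89.3% of HET nuclei held no Gfap UMI, and 1 WT nucleus held 5 or more. The interval does not cover this unevenness between nuclei. The pooled astro value was −0.54. When the nuclei inside and outside subcluster 4 were given the same weights in both libraries, it was −0.21, whereas that of Slc1a2 was 0.48.

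**Figure D4:**
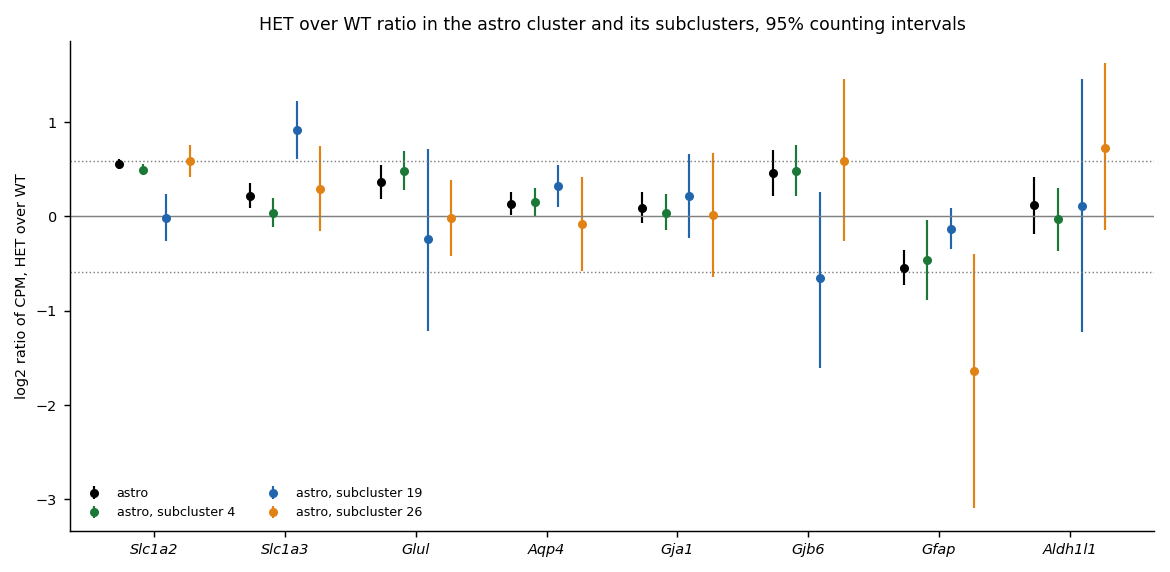
Log2 ratio of CPM, HET over WT (vertical axis), of each gene (horizontal axis) in the whole astro cluster (black) and in subclusters 4 (green), 19 (blue) and 26 (orange), with 95% counting intervals; dotted lines mark 1.5-fold. Slc1a3 in subcluster 19 lies at 0.92 while Slc1a2 there lies at −0.01, and in subcluster 4 the order of the 2 genes is the opposite, 0.04 and 0.50.

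Over all nuclei, Slc1a3 went from 28.7 to 43.2 CPM, a log2 ratio of 0.59 (0.51 to 0.67), and Slc1a2 from 120.4 to 176 CPM, 0.55 (0.51 to 0.59). The intervals of 7 genes lay above 0, and that of Gfap (−0.13, −0.27 to 0.01) included 0. The share of all genes with intervals off 0 was not computed here either, so this count is not read as a trait of the set. Slc1a3 alone passed 1.5-fold, while 6.29% of 16347 genes were at least 1.5-fold higher and 12.7% at least 1.5-fold lower in HET. With every cluster given the same weight in both libraries the value of Slc1a3 was 0.26, that of Slc1a2 0.46, and that of Glul went from 0.21 to −0.04.

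Outside the astro cluster, Slc1a2 was also higher in HET in the oligo cluster (62.6 and 82.3 CPM, log2 ratio 0.39, 0.21 to 0.58), in neuron.1 (39.9 and 48.5 CPM, 0.28, 0.19 to 0.37) and in neuron.2 (57.6 and 76.1 CPM, 0.40, 0.09 to 0.71). It was also higher beyond counting in neuron.3 (22 and 103 UMIs, 1.12, 0.44 to 1.85), neuron.4 (40 and 182 UMIs, 0.84, 0.34 to 1.37) and neuron.5 (6 and 132 UMIs, 1.44, 0.28 to 2.91). In these 6 clusters its level was at or below 3.28% of that in astro nuclei. Over all neuronal clusters pooled, however, Slc1a2 was lower in HET (55.4 and 48.5 CPM, −0.19, −0.27 to −0.12), and without neuron.6, which gave 1004 of the 3287 WT UMIs, it was higher (39.6 and 48.1 CPM, 0.28, 0.20 to 0.36). In neuron.5 Slc1a3 had 0 UMIs in 42 WT nuclei, which allows up to 19.1 CPM, and 51 UMIs or 39.9 CPM in 332 HET nuclei. Glul was lower in HET in endo (336 and 229 CPM, −0.55, −0.95 to −0.17), in micro (119.5 and 86.1 CPM, −0.47, −0.84 to −0.11) and in neuron.1 (22.1 and 18.97 CPM, −0.22, −0.36 to −0.09). The reference label called 161 of 222 WT and 48 of 122 HET endo nuclei Endothelial cells, and in those Glul was at 365 and 355 CPM.

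Across the 24 combinations of cluster and library with enough nuclei, the 8 genes fell into an order of likeness. The correlation of log2(CPM + 10), given as a description over points that share libraries, was highest for Slc1a2 with Gfap (r = 0.95) and lowest for Glul with Aldh1l1 (r = 0.41), and Glul had 4 of the 5 lowest values among the 28 pairs. These values compare whole clusters. Within the astro cluster Slc1a2 and Gfap parted, as subcluster 19 was lower than subcluster 4 for Slc1a2 and higher for Gfap. Of 16347 genes, those most like Slc1a2 were Slc6a11 (r = 0.96), Ntsr2 (0.96) and Atp1b2 (0.95), and those most like Aqp4 were Slc39a12 (0.98), Ednrb (0.96) and Tprkb (0.96). Gfap was most like Cxcl14 (0.96), Ntsr2 (0.95) and Pipox (0.95), and Aldh1l1 most like Gm31356, Lgr6 and Dao (0.93 each). Slc1a3 was most like Tcf7l2 (0.96), Gramd3 (0.95) and Zhx2 (0.95), and Gja1 most like Prrx1 (0.96), Heph (0.95) and P4ha1 (0.95). Gjb6 was most like F3, Cmtm3 and Slc7a11 (0.95 each), and Glul most like Clic4 (0.95), Selenop (0.95) and Neat1 (0.94).

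The genes around these 8 in the same pathways were taken from 6 lists of 67 genes, of which 51 had at least 20 UMIs in astro nuclei. Of these, 2 were at least 1.5-fold higher in HET and 6 at least 1.5-fold lower, and their median log2 ratio was −0.03. Of all 13109 genes with at least 20 UMIs in astro nuclei, 8.38% were at least 1.5-fold higher and 18.4% at least 1.5-fold lower, with a median of −0.11, so the lists as a whole held no larger share of such genes than the rest. In the glutamate and glutamine list 0 of 13 were higher and 1 lower, with a median of −0.14. The one was Slc38a2, a neutral amino acid transporter, with 269 WT and 188 HET UMIs and a log2 ratio of −0.82 (−1.09 to −0.54), and the astrocytic glutamine exporter Slc38a3 was at 150.4 CPM in WT and 121 CPM in HET (−0.31, −0.54 to −0.08). The glutamate receptor Grm3 was at 374 and 453 CPM (0.28, 0.14 to 0.41). Of the 13 genes, 2 had intervals above 0 and 5 had intervals below 0. The share of all genes with such intervals was not computed for this list or the next.

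None of 12 genes of potassium and water handling passed 1.5-fold, and their median was 0.03. Beyond counting, 4 of them were higher and 1 lower. The bicarbonate cotransporter Slc4a4 was at 2516 and 3295 CPM (0.39, 0.34 to 0.44) and the potassium channel Kcnj10 at 223 and 264 CPM (0.24, 0.07 to 0.41). The lower one was Hepacam, at 303 and 245 CPM (−0.31, −0.47 to −0.15). Among 5 other gap junction genes 1 was lower, Gjb1 from 59 and 45 UMIs, and the median was −0.19.

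The list of intermediate filament and reactive astrocyte genes, which Gfap belongs with, had 1 of 8 higher (Synm, 25 and 73 UMIs) and 4 lower (Vim, Serpina3n, C4b and S100b), with a median of −0.47, beside the 8.38% higher and 18.4% lower of all genes with at least 20 UMIs. Vim rested on 47 and 37 UMIs, with an interval that included 0, and Serpina3n on 17 and 6. The calcium-binding protein gene S100b was at 130.1 and 86.5 CPM (275 and 225 UMIs, −0.59, −0.85 to −0.33), and C4b had 114 and 67 UMIs (−1.07, −1.52 to −0.62). C4b was at 318 CPM in WT and 196 CPM in HET in subcluster 19, and at 14.9 and 9.34 CPM in subcluster 4. None of 7 genes of GABA, glycine and serine handling passed 1.5-fold, with a median of 0.27, and 1 of 6 in the folate and aldehyde list was higher. This was Folh1, the peptidase that releases glutamate from N-acetylaspartylglutamate, with 207 and 410 UMIs and a log2 ratio of 0.69 (0.44 to 0.93).

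**Figure D5:**
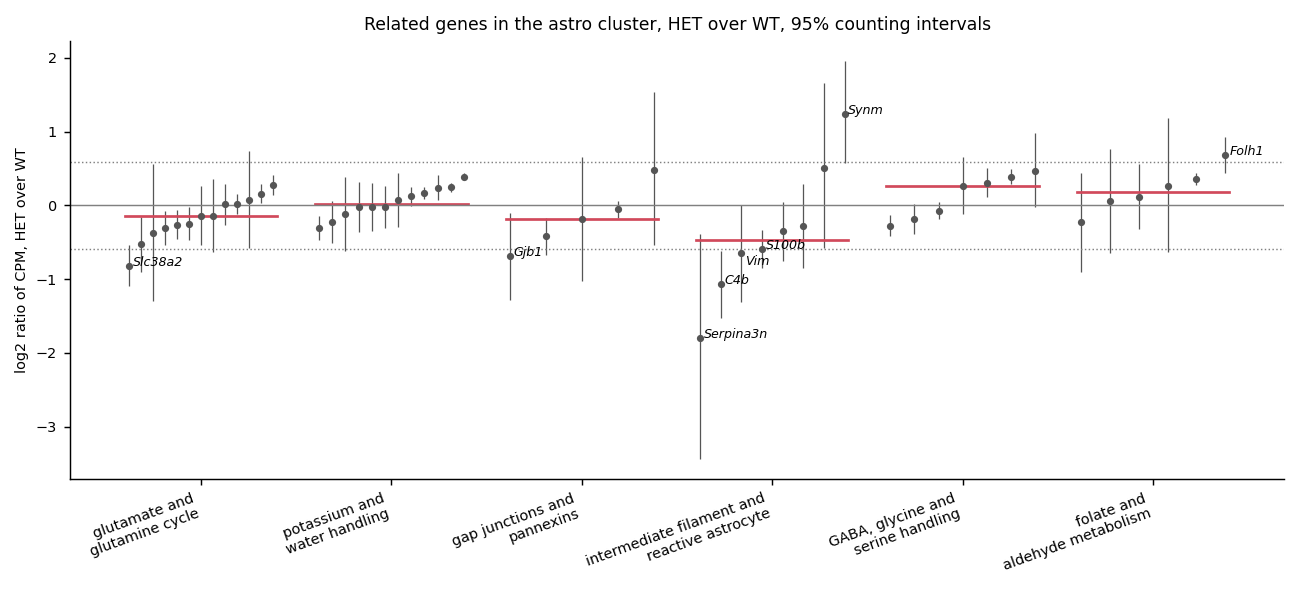
Log2 ratio of CPM, HET over WT, in astro nuclei (vertical axis) of the 51 genes with at least 20 UMIs in 6 related lists (horizontal axis), with 95% counting intervals; red bars are list medians and dotted lines mark 1.5-fold. The 2 genes above and 6 below the dotted lines are named, and the lowest median, −0.47, is that of the intermediate filament and reactive astrocyte list.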

How the data were processed

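The counts were UMIs per gene and nucleus, deposited by the authors without normalization, from 10x Chromium 3′ v3.1 libraries aligned with Cell Ranger (version not given in the sources used here) to its default mm10 reference and filtered in Seurat 4.1, with called doublets, mitochondrial and hemoglobin genes removed. The percent of mitochondrial and ribosomal protein UMIs and the doublet score of each nucleus, the clusters, the subclusters at resolution 0.8 and the reference label were the authors' deposited values. Clustering and alignment were not repeated, and the doublet caller is not named.

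UMIs were summed per cluster and library and divided by all UMIs of those nuclei (CPM). Levels have exact Poisson intervals, shares Clopper-Pearson intervals and ratios exact conditional binomial intervals, all at 95%, for counting error only. A level of 0 was given the limit of 3 UMIs. Thinned shares are those expected at 1000 UMIs drawn per nucleus. Intervals of differences between ratios used the normal approximation. The calculation of ratios was tested on simulated data. Depth was 70301390 UMIs in WT and 66176778 in HET, and 23 barcodes were shared by the libraries, 0 of them in both astro groups.

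With 1 library per genotype no comparison of genotypes was tested. The members of the set, the 6 lists and the markers were chosen with earlier results of these data known. Genes named beside the set were list genes past 1.5-fold with at least 200 UMIs, the 3 genes with the highest correlation to each member, Scn1a and, chosen after their values were seen, other list genes and markers. The 1 list gene without a row of its own in the counts was not analysed here. Positions are those of GENCODE vM21 on GRCm38, and the build of the counts, mm10, has the same coordinates. Promoters of 7 of the 8 genes were matched by symbol to RefSeq windows. The work was done in Python 3.11.15 with scipy 1.17.1, numpy 2.4.6, pandas 2.3.3 and matplotlib 3.10.9. Alternatives covered the scaling, the depth and doublet filters, the labels, the subcluster and cluster weights and the minimum counts.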

Additional observations from a re-analysis of the deposited data

Results flagged for a closer look

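Glul moved in opposite directions in the astro cluster, where its log2 ratio of HET over WT was 0.36, and in 3 other clusters, each beyond its counting interval: −0.55 in endo, −0.47 in micro and −0.22 in neuron.1. Gjb6 was higher in HET in the astro cluster (0.46) and lower in fibro (−0.51). These differences between clusters were not tested, because each genotype had 1 library. The reference label called a smaller part of the HET than of the WT endo nuclei Endothelial cells, 48 of 122 against 161 of 222, and the part of this in the endo value was not tested beyond the levels given for those nuclei.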

How the results depend on the processing

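No paired analysis was possible because each genotype had 1 library, and for the same reason none could be left out. Of 757 alternative values, 664 stayed within the counting interval of the value they replaced or within 1.5 times of the count. Of the rest, 81 moved and 12 changed sign where the reported interval excluded 0. In the astro cluster the log2 ratios kept their sign under 9 alternatives for 7 genes, and Aldh1l1 ran from −0.09 to 0.16. With equal weights inside and outside subcluster 4, Slc1a2 was 0.48 and Gfap −0.21. Genes past 1.5-fold went from 0 to 1 higher with the median set to 0, and from 0 to 1 lower in nuclei with at least 2000 UMIs and without the highest doublet scores. Over all nuclei, where 1 gene was higher, 2 were with the median set to 0 or at least 2000 UMIs per nucleus, and 0 with totals without ribosomal genes, without the highest doublet scores or with equal cluster weights, under which Glul was −0.042. Causes were not tested.

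Splits added after the data were seen also moved values. Without neuron.6, Slc1a2 over the neuronal clusters went from −0.19 to 0.28. Of the nuclei outside subcluster 4, subcluster 19 alone gave −0.014 for Slc1a2 with 1 gene past 1.5-fold lower, and subcluster 26 alone −0.078 for Aqp4 with 3 genes higher and 1 lower. For subcluster 4 over the others, in WT, subcluster 19 alone gave −0.43 for Slc1a3, −0.34 for Gja1 and −4.56 for Gfap, subcluster 26 alone 0.98 for Aqp4 and −0.033 for Gfap, and the mean over nuclei −0.0056 for Gja1. In HET, subcluster 19 alone gave −4.89 for Gfap, and subcluster 26 alone 0.68 for Slc1a3, −0.087 for Glul, 1.21 for Aqp4 and 1.15 for Gfap. Median shares with a UMI were 46.1% and 54.8% at full depth against 19.96% and 22.6% thinned. With genes of at least 20 UMIs, 8.38% were higher and 18.4% lower. With 200 UMIs, 1 list gene was higher and 2 lower.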
